A study of Mus musculus with 6 samples.

Results

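The genes described here make ribosomes. They are the ribosome biogenesis and RNA polymerase I and III genes measured in RVP3 cells, a mouse tumour cell line of C57BL/6 background grown in culture, on Illumina Mouse WG-6 bead arrays. A gene was a member when its array symbol started with Nop, Utp, Polr1, Polr3, Rrp, Exosc, Wdr12, Wdr43 or Wdr75, or was 1 of 21 genes named one by one. This gave 55 genes, read by 83 probes, of 8734 named genes tested. Of the 21 genes named one by one, 16 were measured, and Fbl, Npm3, Nolc1, Dkc1 and Bysl were not. RVP3 cells of the DAC/TSA group (3 arrays) received 3 µM 5-aza-2′-deoxycytidine (DAC), an inhibitor of DNA methylation, for 48 h and then 30 ng/ml Trichostatin A (TSA), a histone deacetylase inhibitor, for another 24 h. RVP3 cells of the control group (3 arrays) received neither agent. Both groups are 1 cell line, so the spread between arrays is that of replicate cultures and not of tumours or animals. No group received DAC or TSA alone, and their separate effects cannot be told apart.

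RNA polymerase I transcribes the long ribosomal RNA precursor in the nucleolus, and RNA polymerase III makes 5S ribosomal RNA, transfer RNAs and other short RNAs. Small nucleolar RNAs with their proteins guide the chemical modification of the precursor, the small subunit processome folds and cuts it, and further factors build the 40S and 60S subunits while the RNA exosome trims and degrades the by-products. Proliferating tumour cells make many ribosomes, and the transcription factor Myc, which binds the E-box sequence CACGTG, is a known activator of many of these genes.

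The E-box was therefore looked for at the start sites of the member genes. RefSeq promoter windows (GRCm38.p6, 250 bases before to 50 bases after the start, 300 bases in all) were found for 44 of the 55 members. Some genes had several windows, and a gene was counted as having the motif if any of its windows held it. CACGTG, which reads the same on both strands, was found for 10 of these 44 members (22.7%). It was found for 871 of the 7142 named genes tested that had a window (12.2%) and for 2187 of all 27025 genes with a window (8.09%). Among members with a window, the motif was found for 3 of the 5 upregulated after DAC/TSA (60%). It was found for 2 of the 20 downregulated members (10.0%) and 5 of the 19 that were not called (26.3%). These shares rest on few genes and were not tested, and a match gives only the letters, not a bound factor. The upregulated members with the motif were Pes1, Imp4 and Exosc5, the downregulated ones were Nop2 and Wdr43, and their windows are shown beside that of Polr1a, the gene of the largest RNA polymerase I subunit, in which the motif was not found. These 6 were chosen after their values were seen. Each sequence runs from 130 bases before to 30 bases from the start site on the + strand, with the E-box in capitals. The windows lie at chr11:3963845-3964004 (Pes1), chr1:34439699-34439858 (Imp4), chr7:25659023-25659182 (Exosc5), chr6:125131753-125131912 (Nop2), chr17:71616085-71616244 (Wdr43) and chr6:71908923-71909082 (Polr1a).
Pes1: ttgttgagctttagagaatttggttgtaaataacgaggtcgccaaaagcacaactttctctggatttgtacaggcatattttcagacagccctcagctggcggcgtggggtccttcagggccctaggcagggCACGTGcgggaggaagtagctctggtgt
Imp4: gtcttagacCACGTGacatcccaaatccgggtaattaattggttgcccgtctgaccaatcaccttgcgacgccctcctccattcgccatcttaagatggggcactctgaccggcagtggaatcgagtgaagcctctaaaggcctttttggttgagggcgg
Exosc5: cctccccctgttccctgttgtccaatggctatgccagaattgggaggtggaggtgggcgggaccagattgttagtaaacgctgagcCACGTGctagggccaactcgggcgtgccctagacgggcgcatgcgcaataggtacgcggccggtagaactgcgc
Nop2: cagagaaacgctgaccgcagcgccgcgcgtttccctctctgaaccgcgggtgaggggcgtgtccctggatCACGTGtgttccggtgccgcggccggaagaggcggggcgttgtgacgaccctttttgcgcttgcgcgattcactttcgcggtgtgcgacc
Wdr43: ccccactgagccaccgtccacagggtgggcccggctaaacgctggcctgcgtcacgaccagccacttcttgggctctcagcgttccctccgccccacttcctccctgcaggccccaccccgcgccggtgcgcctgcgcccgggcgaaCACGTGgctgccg
Polr1a: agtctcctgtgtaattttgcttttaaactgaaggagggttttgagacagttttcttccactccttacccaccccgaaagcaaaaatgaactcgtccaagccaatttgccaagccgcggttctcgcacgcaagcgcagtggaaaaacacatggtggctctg
The motif began 121 bases before the start in Imp4, 60 before it in Nop2 and 44 before it in Exosc5, and lay 2 bases after it in Pes1 and 17 after it in Wdr43. CpG dinucleotides, the sites that DNA methylation uses in mammals, were counted for each gene in the window that held the most. The median was 22.5 for the members, against 23.0 for named genes tested and 8.0 for all genes.

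All values below are log2 intensities after quantile normalisation, and a change is the DAC/TSA mean minus the control mean with its standard error (SE). A gene was read by its brightest probe and called at an adjusted p under 0.01 (limma, Benjamini-Hochberg over all probes tested). Median raw intensities of replicates 1 to 3 were 45.9, 44.8 and 42.6 after DAC/TSA, against 42.9, 42.2 and 40 in control cells. Detected probes numbered 14101, 14731 and 15056, against 13227, 13882 and 14261, so both were higher after DAC/TSA at each replicate number. The arrays correlated at 0.992 or more within groups and at 0.95 or less between them. Of the 55 members, 53 were detected on all 6 arrays. The labels name no tissue. Of 8 mesenchymal markers listed, 3 were measured and detected on all arrays, and the 3 DAC/TSA arrays lay wholly above the control arrays for each: Fn1 was upregulated by 2.26 (4.8-fold, adjusted p = 1.25e-09), and Sparc and Vim changed by 0.29 and 0.27 without a call. Of 6 epithelial markers, 3 were measured, with Krt8 and Krt18 detected on all arrays and not called (-0.16 and -0.34), and Cldn4 detected on 3 DAC/TSA arrays and 0 control arrays. Of 9 leukocyte markers, Laptm5 and Lyz2 were measured and likewise detected on 3 DAC/TSA arrays and 0 control arrays, and of 5 endothelial markers Kdr was measured and not called. The part of these markers in the members' changes was not tested. In bulk RNA, fewer cells expressing a gene and less RNA of it per cell cannot be told apart.

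After DAC/TSA, 25 of the 55 members were downregulated (45.5%), against a background of 25.8% of all named genes, and 7 were upregulated (12.7%), against 27%. The downregulated genes included those of the RNA polymerase I core (Polr1a, Polr1b, Polr1c), its factors treacle (Tcof1) and UBF (Ubtf), nucleolin (Ncl), nucleophosmin (Npm1) and 4 of the 8 exosome genes measured, while Pes1 and Bop1, partners in the PeBoW complex of 60S assembly, were upregulated. The other 23 members were not called. The median change over the members was -0.26, against -0.02 over all named genes, with 43 members below zero and 12 above it and a range of -1.21 to 1.03. The median member signal was 8.95 after DAC/TSA and 9.25 in control cells. The 3 DAC/TSA arrays lay wholly below the 3 control arrays for 31 members, where 34.6% of all named genes did so, and wholly above them for 8 members, where 34.7% did so. Changes of at least 2-fold were rare: 1 member was lower by that much (Tcof1), with 3.82% of all named genes, and 1 higher (Pes1), with 7.06%.

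**Figure D1:**
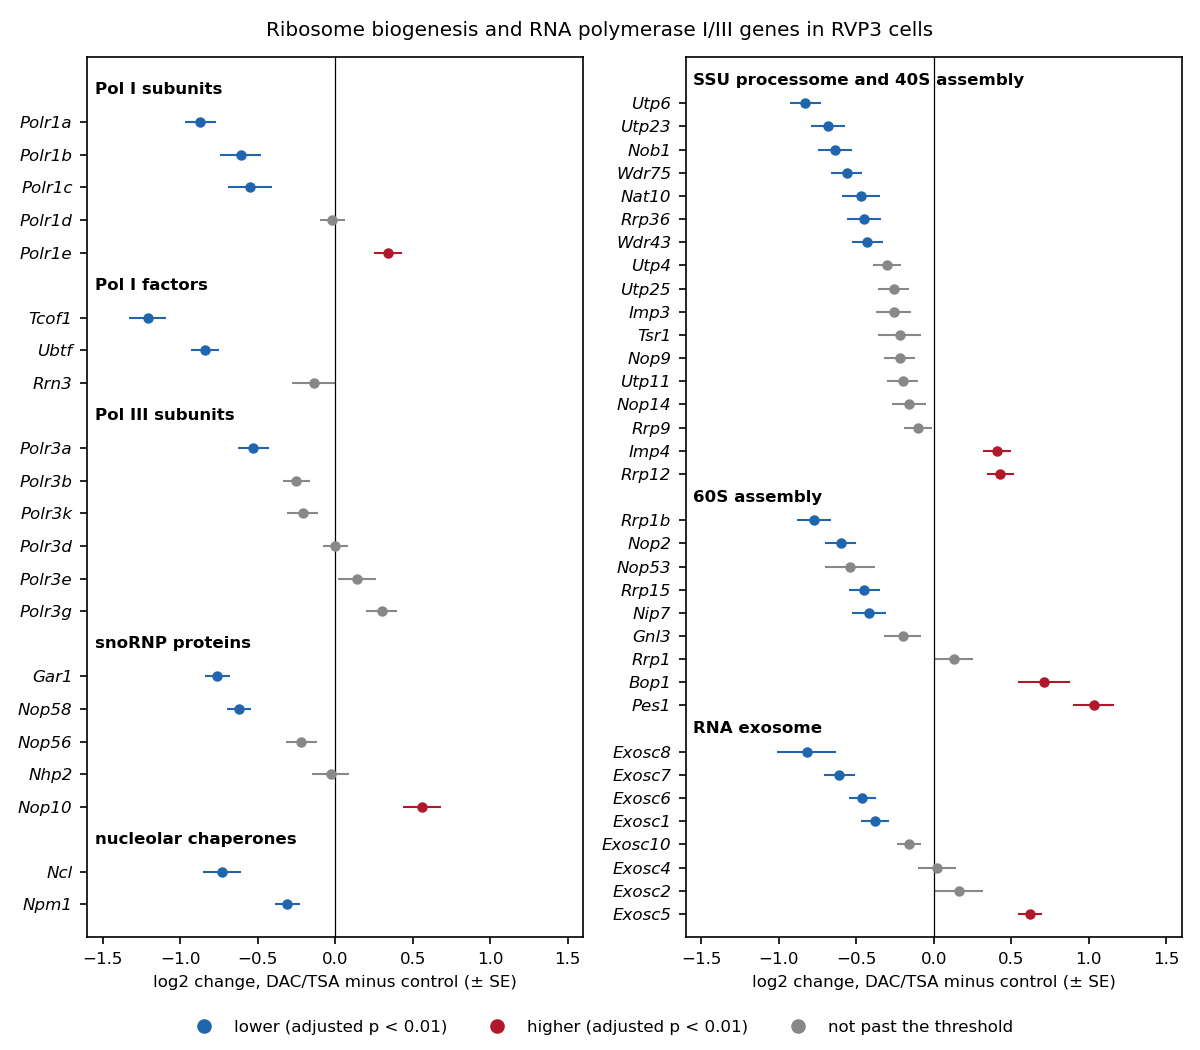
Log2 change (DAC/TSA minus control, with SE) of the 55 member genes, grouped by role, with the call of each gene by colour. Of the points, 43 lie below zero, and the extremes are Tcof1 at -1.21 and Pes1 at 1.03.

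Genes often taken as stable references also lay low. Of 9 such genes listed, 8 were measured, all 8 lay below zero, also with median scaling or neqc background correction, with a median change of -0.26 (-0.89 to -0.07), and Gusb and Tbp were downregulated. This median was as far below zero as that of the members, and its part in the members' shift was not tested. Tbp, the reference gene that fell most (-0.89), is also among the further RNA polymerase I and III factors counted below. Actb changed by -0.27 ± 0.09 (adjusted p = 0.0235) and Gapdh by -0.07 ± 0.09 (adjusted p = 0.565), neither a call. The counts also depended on the scaling. With arrays scaled to a common median in place of quantile normalisation, 5 members were downregulated (Ubtf, Tcof1, Rrp1b, Utp6 and Gar1) and 0 upregulated. This was 9.09% of the members against 9.33% of all named genes downregulated, and 0% against 15.3% upregulated, so with this scaling the share of downregulated members was no larger than the background. The median change was -0.22, against 0.02 over all named genes. The median of each role group below kept its sign under that scaling, and Polr1d, Polr3d and Nhp2, whose changes were near zero, moved to 0.06 each. With that scaling and the replicate number as a block, 27 were downregulated (49.1%, against 29.5% of all named genes) and 8 upregulated (14.5%, against 34.7%), which included all 25 and all 7 of the calls above. This run was added after the data were seen. The labels do not say that the numbers pair the arrays, and in the data only replicate 3 stood apart. The block values of single genes below rest on the same pairing.

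**Figure D2:**
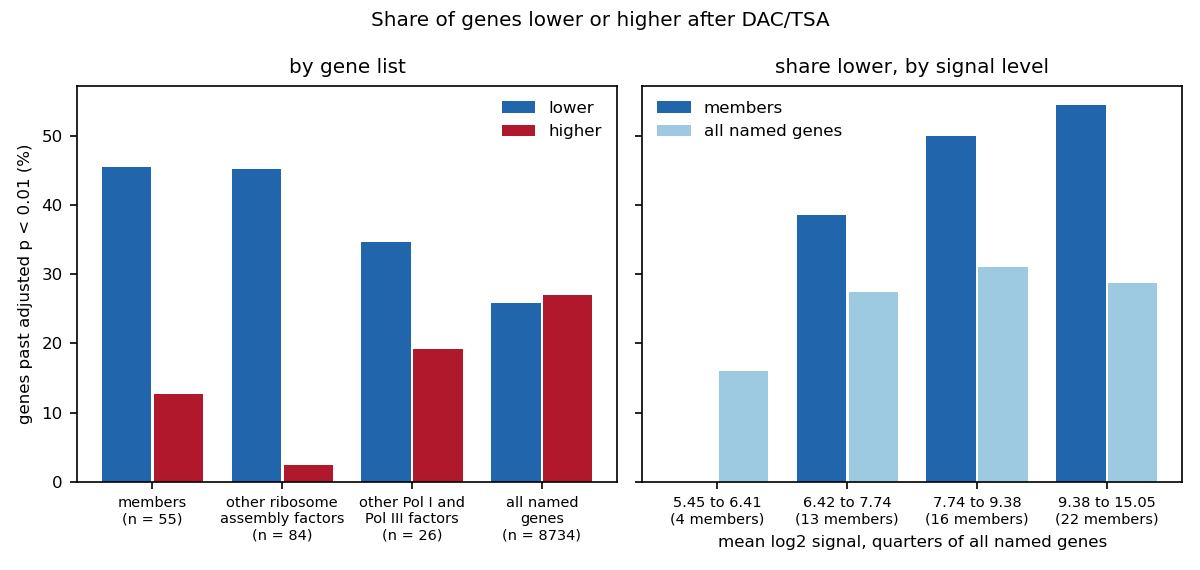
Percent of genes downregulated and upregulated after DAC/TSA, in the members, in related gene lists and in all named genes, and percent downregulated by range of mean log2 signal in members and in all named genes. The members have 45.5% lower and 12.7% higher, and all named genes 25.8% lower and 27% higher.

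The share of downregulated genes was larger among bright members. Among members with a mean log2 signal of 9.38 to 15.05, 12 of 22 were downregulated (54.5%, against 28.8% of all named genes in that range). Between 7.74 and 9.38 it was 8 of 16 (50%, against 31.0%), and between 6.42 and 7.74 it was 5 of 13 (38.5%, against 27.4%). Of the 4 members at 5.45 to 6.41, none was downregulated (0.0%, against 16%), where signals were nearest the background of the arrays. In each of these ranges the members' median change lay below that of all named genes, with the widest gap between 7.74 and 9.38 (-0.40 against -0.07).

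For each role group from here on, the background was 25.8% of all named genes downregulated and 27% upregulated. The groups are small, and their shares were not tested against it. Of the 5 RNA polymerase I subunits among the members, 3 were downregulated (60%) and 1 upregulated (20%), with a median change of -0.55. These shares leave out Cd3eap, Twistnb and Znrd1, further subunits under older symbols that the membership rule missed. They were measured and not called, with changes of -0.14, -0.30 and -0.05. Polr1a, which carries the catalytic centre with Polr1b, had log2 signals of 10.45, 10.67 and 10.65 after DAC/TSA, against 11.35, 11.52 and 11.52 in control cells. Every DAC/TSA array lay well below every control array, a change of -0.87 ± 0.10 (1.83-fold lower, adjusted p = 7.55e-06). All 4 probes of Polr1a were downregulated, with changes of -0.89 to -0.77. Polr1b, the second-largest subunit, had 8.44, 8.64 and 8.77 after DAC/TSA, against 8.94, 9.26 and 9.47 in control cells. The groups did not overlap, but the spread within each was wider than for Polr1a, and the change was -0.61 ± 0.13 (adjusted p = 0.00172). Polr1c, a subunit shared with RNA polymerase III, had 7.62, 7.71 and 8.14 after DAC/TSA, against 8.34, 8.22 and 8.56 in control cells. Its highest DAC/TSA array came close to its lowest control array, and the change was -0.55 ± 0.14 (adjusted p = 0.0041). Polr1e, the gene of the PAF53 subunit, went the other way, with 9.05, 8.96 and 9.0 after DAC/TSA, against 8.75, 8.64 and 8.62 in control cells. Its groups were tight and apart, at 0.34 ± 0.09 (adjusted p = 0.00467). The calls of Polr1c and Polr1e were lost on leaving out single arrays: for Polr1c, DAC/TSA replicate 1 or 2 or control replicate 1 or 3 (adjusted p = 0.0122 to 0.0234, changes of -0.56 to -0.44), and for Polr1e, DAC/TSA replicate 1 or 2 or control replicate 2 or 3 (0.0131 to 0.021, changes of 0.31 to 0.36). Polr1d, the partner of Polr1c, changed by -0.02 ± 0.08 at its brightest probe (adjusted p = 0.839) and by 0.36 at a second one (adjusted p = 0.00798), so its probes did not give 1 answer.

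The factors that bring RNA polymerase I to ribosomal DNA held the largest fall among the members. Tcof1 encodes treacle, a nucleolar partner of UBF, and had 6.46, 6.42 and 6.66 after DAC/TSA, against 7.50, 7.73 and 7.92 in control cells. The highest DAC/TSA array was far below the lowest control array, a change of -1.21 ± 0.12 (2.31-fold lower, adjusted p = 2.33e-06). A second Tcof1 probe, detected on 0 DAC/TSA arrays and 3 control arrays, changed by -0.26 (adjusted p = 0.0359), and the gene was not called when all its probes had to pass. Ubtf encodes UBF, which binds along active ribosomal DNA, and had 9.13, 9.14 and 9.14 after DAC/TSA, against 10.06, 9.97 and 9.90 in control cells. The DAC/TSA arrays were almost equal and all below control, a change of -0.84 ± 0.09 (1.79-fold lower, adjusted p = 4.05e-06). The other Ubtf probe had 7.04, 7.12 and 7.20 after DAC/TSA, against 9.13, 9.09 and 9.43 in control cells. It fell further than any other member probe, by -2.10 (4.28-fold lower, adjusted p = 1.18e-08), so the direction was shared by both probes and the size was not. Rrn3, the factor TIF-IA that makes the polymerase competent to start, had 6.27, 6.31 and 6.77 after DAC/TSA, against 6.40, 6.58 and 6.78 in control cells. The groups overlapped, and the change was -0.14 ± 0.14 (adjusted p = 0.418).

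The RNA polymerase III subunits among the members had a median change of -0.11. Of these, 1 of 6 was downregulated (16.7%, background 25.8%) and 0 were upregulated (background 27%). These shares leave out Crcp, a further subunit that the membership rule missed, which was downregulated (-0.52 ± 0.09, adjusted p = 0.00026). Whether they differed from the RNA polymerase I genes was not tested, and the rule missed subunits of both polymerases. Polr3a, the largest subunit, had 6.76, 6.60 and 6.81 after DAC/TSA, against 7.12, 7.24 and 7.42 in control cells. The groups were apart, at -0.53 ± 0.10 (adjusted p = 0.000648), but its second and dimmer probe changed by 0.22 (adjusted p = 0.108). Polr3b, the second-largest subunit, had 9.12, 8.96 and 9.10 after DAC/TSA, against 9.35, 9.40 and 9.17 in control cells. These groups came within a small gap of each other, and the change of -0.25 ± 0.09 was not a call (adjusted p = 0.0398). Polr3g, a subunit with a paralogue that can take its place and known for its expression in stem cells, had 6.81, 6.67 and 6.67 after DAC/TSA, against 6.24, 6.57 and 6.44 in control cells. All DAC/TSA arrays lay above control, with a change of 0.30 ± 0.10 (adjusted p = 0.0239, or 0.00754 with replicates paired as a block). Polr3d, Polr3e and Polr3k were not called, with changes of 0.00, 0.14 and -0.21.

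Among the proteins of small nucleolar ribonucleoproteins, 2 of 5 were downregulated (40%, background 25.8%) and 1 upregulated (20%, background 27%), with a median change of -0.22. Gar1, of the box H/ACA particles that convert uridine to pseudouridine, had 11.98, 12.07 and 12.03 after DAC/TSA, against 12.76, 12.76 and 12.83 in control cells. Both groups were tight, with a change of -0.76 ± 0.08 (1.70-fold lower, adjusted p = 7.43e-06). A dimmer Gar1 probe changed by 0.33 (adjusted p = 0.0255), in the other direction and without a call. Nop58, a core protein of the box C/D particles that guide 2′-O-methylation, had 10.44, 10.54 and 10.47 after DAC/TSA, against 11.08, 11.13 and 11.10 in control cells. The gap between the groups was several times the spread within them, at -0.62 ± 0.08 (adjusted p = 4.06e-05). Nop56, its partner in the same particle, had 9.91, 9.98 and 9.78 after DAC/TSA, against 9.93, 10.14 and 10.25 in control cells. Here the groups overlapped, and -0.22 ± 0.10 was not a call (adjusted p = 0.0883). Nop10, which like Gar1 belongs to the H/ACA core, had 10.52, 10.44 and 10.81 after DAC/TSA, against 10.02, 9.86 and 10.22 in control cells. It was upregulated by 0.56 ± 0.12 (1.47-fold, adjusted p = 0.0015), while its other probe changed by 0.07. At the brightest probes, proteins of 1 particle were thus called in opposite directions. Neither Gar1 nor Nop10 was called when all probes of the gene had to pass. Nhp2, of the same core, changed by -0.03 at its brightest probe, with an adjusted p of 0.857, and by 0.32 at the other, with an adjusted p of 0.00607.

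Both nucleolar chaperones measured were downregulated. Ncl, the gene of nucleolin, which binds nascent ribosomal RNA, had 8.58, 8.76 and 8.96 after DAC/TSA, against 9.38, 9.42 and 9.68 in control cells. The groups were apart, at -0.73 ± 0.12 (1.65-fold lower, adjusted p = 0.000171), and a second probe was downregulated too (-0.60). Npm1, the gene of nucleophosmin, was the brightest member, with 14.09, 14.07 and 14.08 after DAC/TSA, against 14.46, 14.38 and 14.32 in control cells. Its small change of -0.31 ± 0.08 (1.24-fold lower, adjusted p = 0.00772) was no longer a call without DAC/TSA replicate 1, 2 or 3 or control replicate 1 or 2 (adjusted p = 0.0141 to 0.0387, changes of -0.31 to -0.27).

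**Figure D3:**
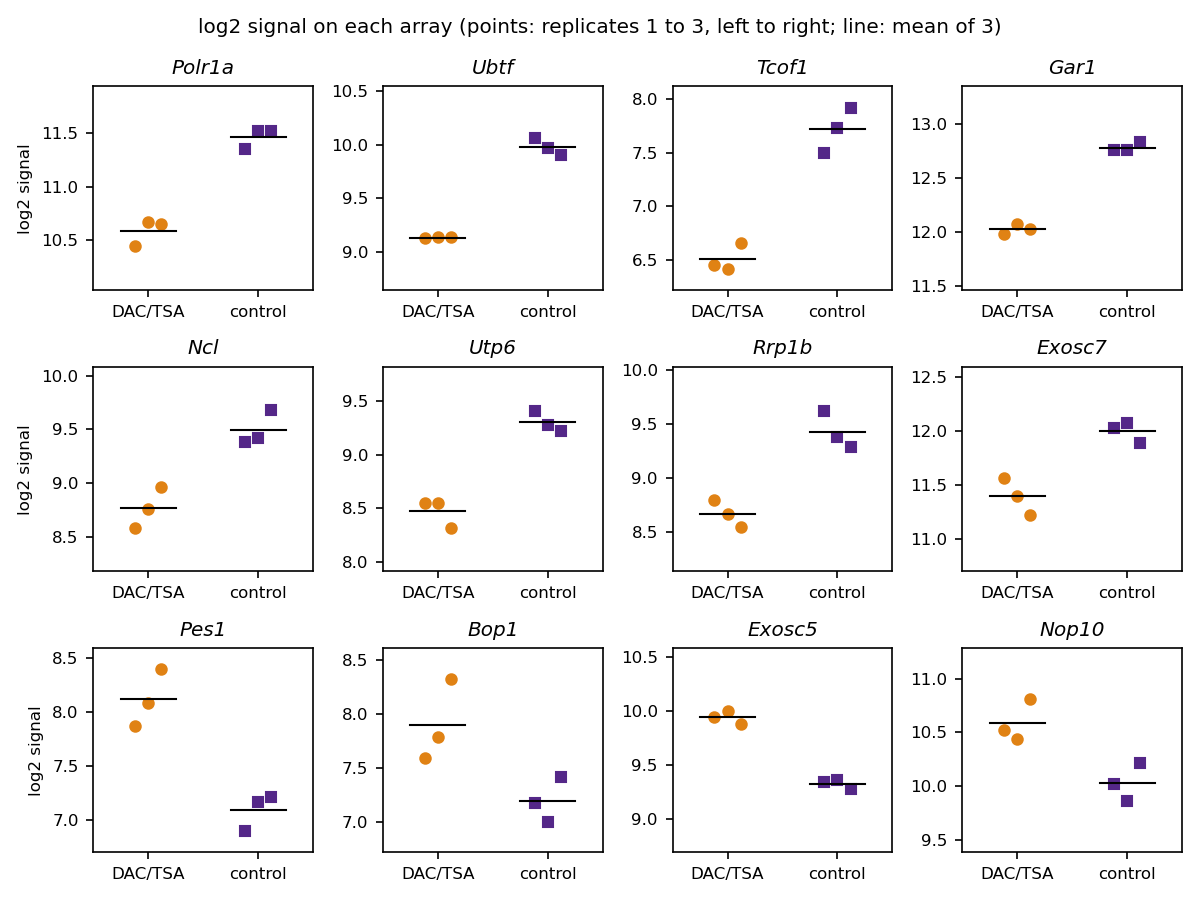
Log2 signal of member genes on each of the 3 DAC/TSA and 3 control arrays, 1 point for each array, with a line at the mean of each group. The groups do not overlap for Tcof1, Ubtf and Polr1a, all lower after DAC/TSA, or for Pes1, higher after DAC/TSA.

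The small subunit processome and 40S assembly formed the biggest group, with 17 genes measured and a median change of -0.26. Of these, 7 were downregulated (41.2%, background 25.8%) and 2 upregulated (11.8%, background 27%). Utp6, a processome protein, had 8.55, 8.55 and 8.32 after DAC/TSA, against 9.41, 9.28 and 9.22 in control cells. All its DAC/TSA arrays were clearly lower, at -0.83 ± 0.10 (1.78-fold lower, adjusted p = 1.38e-05). Utp23, known from yeast as a processome protein that helps release a small nucleolar RNA, had 7.60, 7.40 and 7.50 after DAC/TSA, against 8.43, 7.99 and 8.11 in control cells. The groups were apart, at -0.68 ± 0.11 (adjusted p = 0.000274). Nob1, the nuclease that makes the final cut of 18S ribosomal RNA, had 9.44, 9.73 and 9.70 after DAC/TSA, against 10.28, 10.11 and 10.39 in control cells. It was downregulated at -0.64 ± 0.11 (adjusted p = 0.000264), and its second probe gave -0.49 (adjusted p = 0.000297). Wdr75, of the processome part that also acts in ribosomal RNA transcription, had 10.61, 10.63 and 10.81 after DAC/TSA, against 11.09, 11.30 and 11.33 in control cells. Its groups did not overlap, at -0.56 ± 0.10 (adjusted p = 0.000367), and both its probes were downregulated.

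The other downregulated genes of this group changed less. Nat10, which acetylates ribosomal RNA, changed by -0.47 ± 0.12, Rrp36 by -0.45 ± 0.11 and Wdr43 by -0.43 ± 0.10 (adjusted p = 0.00533, 0.00275 and 0.00306). Each of these 3 calls was lost on leaving out single arrays: Nat10 without any DAC/TSA replicate or control replicate 1 or 2 (adjusted p = 0.0101 to 0.0287), Rrp36 without DAC/TSA replicate 1 or 2 or control replicate 1 (0.0113 to 0.0186), and Wdr43 without control replicate 1 or 2 (0.0135 to 0.0154). Rrp12, a HEAT-repeat protein of pre-40S particles, was upregulated, with 10.38, 10.28 and 10.50 after DAC/TSA, against 9.93, 10.01 and 9.94 in control cells. The groups were apart, at 0.43 ± 0.09 (1.34-fold, adjusted p = 0.00137). Imp4, which joins the U3 small nucleolar RNA in the processome, had 11.01, 10.93 and 10.90 after DAC/TSA, against 10.61, 10.59 and 10.42 in control cells. It was upregulated at 0.41 ± 0.09 (1.33-fold, adjusted p = 0.00189), and its second probe was called in the same direction at 0.50. Imp3, its partner, changed by -0.26 ± 0.11 (adjusted p = 0.068, or 0.0063 with replicates paired as a block). The 8 genes without a call had changes of -0.30 to -0.10, with Utp4 at -0.30 ± 0.09 the nearest to the threshold (adjusted p = 0.0123, or 0.00284 with the block). Utp25, at -0.26 ± 0.10 (adjusted p = 0.038), would also pass with the block (0.00779), and 3 of its 4 probes were downregulated. Tsr1 was detected at its brightest probe on 1 DAC/TSA array and 2 control arrays, where it changed by -0.22 ± 0.14 (adjusted p = 0.2). Its other probe, detected on 3 DAC/TSA arrays and 0 control arrays, was upregulated by 0.46 ± 0.09 (adjusted p = 0.000701).

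Factors of 60S assembly were called in both directions, with a median change of -0.42. Of 9 measured, 4 were downregulated (44.4%, background 25.8%) and 2 upregulated (22.2%, near the background of 27%). Rrp1b, a nucleolar protein, had 8.79, 8.66 and 8.54 after DAC/TSA, against 9.62, 9.38 and 9.29 in control cells. The groups were apart, at -0.77 ± 0.11 (1.71-fold lower, adjusted p = 5.51e-05), and all 4 of its probes were downregulated. Nop2, a methyltransferase of the large subunit RNA, had 8.32, 8.19 and 8.42 after DAC/TSA, against 8.81, 8.88 and 9.04 in control cells. It was downregulated at -0.60 ± 0.10 (adjusted p = 0.000203), as were all 3 of its probes. Rrp15 at -0.45 ± 0.10 and Nip7 at -0.42 ± 0.11 were downregulated with adjusted p = 0.00163 and 0.00508, calls that Rrp15 lost without DAC/TSA replicate 2 or control replicate 1 (0.0111 to 0.0122) and Nip7 lost without DAC/TSA replicate 3 or control replicate 1 or 2 (0.0152 to 0.0237).

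Pes1 and Bop1, which with Wdr12 form the PeBoW complex that large subunit RNA processing needs, stood on the other side. Pes1 had 7.87, 8.08 and 8.40 after DAC/TSA, against 6.89, 7.16 and 7.21 in control cells. The lowest DAC/TSA array was above the highest control array by more than the spread of either group, a change of 1.03 ± 0.13 (2.04-fold higher, adjusted p = 2.87e-05). Bop1 had 7.59, 7.79 and 8.33 after DAC/TSA, against 7.17, 7.0 and 7.42 in control cells. Its lowest DAC/TSA array and highest control array came close, and the change was 0.71 ± 0.17 (1.64-fold higher, adjusted p = 0.00272), no longer a call without control replicate 1 or 2 (adjusted p = 0.0111 to 0.0151, changes of 0.61 to 0.70). Nop53, known from yeast for bringing the exosome to pre-60S particles, changed by -0.54 ± 0.16 with groups that did not overlap, just outside the threshold (adjusted p = 0.0101). With replicates paired as a block it passed (adjusted p = 9.7e-06). Gnl3, the gene of nucleostemin, had 8.02, 7.80 and 7.65 after DAC/TSA, against 8.03, 8.19 and 7.85 in control cells. The groups overlapped, at -0.20 ± 0.12 (adjusted p = 0.156).

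The RNA exosome is a ring of barrel and cap subunits with attached nucleases. Of its 8 genes measured, 4 were downregulated (50%, background 25.8%) and 1 upregulated (12.5%, background 27%), with a median change of -0.27. Exosc8, of the barrel, had 7.28, 7.72 and 8.14 after DAC/TSA, against 8.24, 8.48 and 8.87 in control cells. Its arrays spread widely in both groups, and the change of -0.82 ± 0.19 (1.76-fold lower, adjusted p = 0.0031) was not a call without DAC/TSA replicate 1 or 2 or control replicate 3 (adjusted p = 0.0106 to 0.0121, changes of -0.82 to -0.60). Exosc7, also of the barrel, had 11.56, 11.40 and 11.22 after DAC/TSA, against 12.03, 12.07 and 11.89 in control cells. The groups were apart, at -0.61 ± 0.10 (adjusted p = 0.000281). Exosc6, of the barrel too, had 6.78, 6.81 and 6.73 after DAC/TSA, against 7.32, 7.17 and 7.21 in control cells. It was downregulated at -0.46 ± 0.09 (adjusted p = 0.00056), and its other probe changed by -0.24 without a call. Exosc1, of the cap, changed by -0.38 ± 0.09 (adjusted p = 0.0036), a call lost without DAC/TSA replicate 1 or 3 or control replicate 1 or 2 (0.0105 to 0.0198).

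Exosc5, also of the barrel, was upregulated, with 9.94, 10.00 and 9.88 after DAC/TSA, against 9.34, 9.36 and 9.27 in control cells. Both groups were tight and well apart, at 0.62 ± 0.08 (1.53-fold higher, adjusted p = 4.94e-05). Exosc10, the nuclear nuclease of the complex, had 9.10, 9.02 and 9.04 after DAC/TSA, against 9.18, 9.22 and 9.24 in control cells. The groups did not overlap, but the change of -0.16 ± 0.08 was not a call (adjusted p = 0.113). Exosc4 and Exosc2 changed by 0.02 and 0.16, with overlapping groups.

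Several genes were read by more than 1 probe, which gives a second measurement within each array though not a replicate. Of the 21 members with several probes, 16 had changes of 1 sign at all of them and 5 had both signs. All probes were downregulated for 8 genes and upregulated for 1 gene (Imp4), and 0 genes had probes called in opposite directions. The probes of Ubtf, Gar1 and Tcof1 lay farthest apart, by 1.26, 1.09 and 0.95 on the log2 scale.

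**Figure D4:**
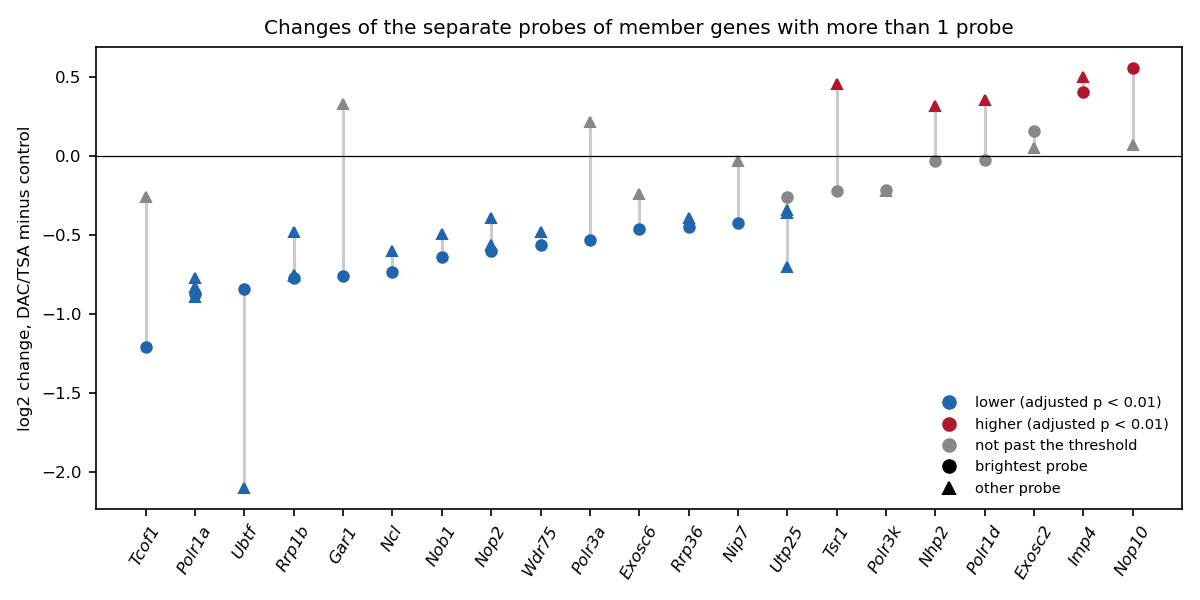
Log2 change (DAC/TSA minus control) at every probe of the 21 members with several probes, with a line joining the probes of a gene. The 4 probes of Polr1a lie close together, from -0.89 to -0.77, while those of Gar1 lie on both sides of zero.

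Related genes outside the membership rule were counted from 2 lists. Of 104 further ribosome assembly factors listed, 84 were measured, of which 38 were downregulated (45.2%) and 2 upregulated (2.38%), with a median change of -0.36. Of 31 further RNA polymerase I and III factors, 26 were measured, of which 9 were downregulated (34.6%) and 5 upregulated (19.2%), with a median change of -0.17. Of all named genes, 25.8% were downregulated and 27% upregulated, with a median change of -0.02, so the polymerase factors lay nearer this background than the assembly factors did. The assembly factors thus had about the same share of downregulated genes as the members, and fewer upregulated ones, a difference that was not tested.

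The largest falls in these lists were in Trmt112, Sdad1 and Surf6. Trmt112, a partner that activates methyltransferases including that of 18S ribosomal RNA, had 6.77, 6.72 and 6.68 after DAC/TSA, against 7.98, 7.92 and 7.78 in control cells. Every DAC/TSA array was far below control, at -1.17 ± 0.09 (2.25-fold lower, adjusted p = 3.67e-07). Sdad1, whose yeast counterpart acts in 60S assembly, changed by -1.14 ± 0.10 (adjusted p = 1.15e-06) and Surf6, a nucleolar protein, by -1.07 ± 0.13 (adjusted p = 1.85e-05). Heatr1, a processome protein needed for ribosomal RNA transcription, was also downregulated (-0.90 ± 0.09, adjusted p = 3.9e-06). Maf1, a repressor of RNA polymerase III, was downregulated as well (-0.51 ± 0.10, adjusted p = 0.000595).

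The largest rises were in Polr2l, Polr2e and Gtf3a. Polr2l, a small subunit shared by the nuclear RNA polymerases, had 13.78, 13.79 and 13.60 after DAC/TSA, against 12.28, 12.34 and 12.12 in control cells. Its arrays were far apart between the groups, at 1.48 ± 0.10 (2.78-fold higher, adjusted p = 1.02e-07). Polr2e, another shared subunit, was upregulated by 0.71 ± 0.09 (adjusted p = 2.3e-05) and Gtf3a, the factor TFIIIA that recognises 5S genes, by 0.70 ± 0.10 (adjusted p = 0.000101). Of the other shared subunits, Polr2f was upregulated (0.46 ± 0.09, adjusted p = 0.00052), and Polr2h was not called, at -0.15 ± 0.09 (adjusted p = 0.152). Cd3eap, Twistnb and Znrd1, older symbols of further RNA polymerase I subunits, were not called, with changes of -0.14, -0.30 and -0.05, and Crcp, a subunit of RNA polymerase III, was downregulated (-0.52 ± 0.09, adjusted p = 0.00026). Polr2f, Polr2h and these 4 genes were named after their values were seen.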

How the data were processed

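RNA of 3 DAC/TSA and 3 control cultures of RVP3 cells was hybridised to Illumina Mouse WG-6 arrays by the authors, who extracted raw signals with BeadStudio. The deposited raw table holds the intensity and a detection p-value of 45281 probes on each array. The authors also deposited log2 values after quantile normalisation of 15131 probes, which were used here only to check the match of probes and as an alternative. Their processing notes name limma. Depth has no counterpart on arrays, and the 3 arrays per group limit the precision.

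Intensities were quantile normalised and log2 transformed, and the 16760 probes with a detection p of 0.01 or less on at least 1 array were tested with lmFit and eBayes of limma 3.58.1 (R 4.3.3), two-sided, with Benjamini-Hochberg adjustment and a threshold of 0.01. Genes were named from the platform annotation: of the 15131 probes of the deposited log2 table, 13126 had 1 symbol, 6 several and 1999 none, and other probes were unnamed here. A gene with several probes was read by the brightest. Genes described with values were, in each role list, up to 4 called members with the largest changes and no overlap between groups, the largest called change against the list's direction, and a set of well-known members, and in the further lists the 3 largest rises and falls. Other genes were added after their values were seen. The members and lists were chosen with earlier results of these data known. The method was tested on simulated data in which few probes changed and no replicate effect was put in. That test does not bear on the choice of scaling for these arrays. The main fit did not pair the arrays. Replicate numbers are shared by both groups, and deviations from the group means correlated at 0.34, 0.24 and 0.65 between arrays of the same number. By a threshold of 0.1 the numbers were taken to pair the arrays in the replicate block runs only, from the data alone. DAC/TSA replicate 1 correlated as highly with control replicate 2 (0.37) and DAC/TSA replicate 2 with control replicate 1 (0.22), so only replicate 3 stood apart. The alternatives were median scaling, neqc background correction, the probes of the deposited log2 table only, no probe filter, all probes of a gene, the replicate block, other thresholds and leaving out each array.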

Additional observations from a re-analysis of the deposited data

How the results depend on the processing

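The median change of the members kept its sign under every alternative run, and 0 of the members called changed direction in any. For some alternatives this was fixed in advance. The probes of the deposited log2 table only, no probe filter, the other thresholds and the replicate block left each log2 change as it was (median -0.26). They could alter only the calls. Median scaling gave 0 members higher and 5 lower (9.09%, against 9.33% of all named genes lower and 15.3% higher), so the larger share of lower members was not seen with it, with a median change of -0.22, and 3 further pathway genes higher and 13 lower. The same scaling with the replicate block, and with both arrays of replicate 3 left out, were added after seeing the data: members had 8 higher and 27 lower (all named genes 34.7% and 29.5%) and 9 higher and 27 lower (31.9% and 26.3%), each with a median of -0.22, and further pathway genes had 11 higher and 59 lower and 10 higher and 54 lower. Requiring a 1.5-fold change left 3 members higher and 14 lower (5.45% and 25.5%, against 16.5% and 14% of all named genes), and 4 further pathway genes higher and 26 lower. The replicate block, which pairs arrays by number, gave 8 members higher and 29 lower (all named genes 32.5% and 32.8%), including all 32 calls, and changed the calls of Imp3, Nop53, Polr3g, Utp25 and Utp4 only among members. With neqc, 20 of the 25 lower and 6 of the 7 higher members kept their call, with a median of -0.30. These were 36.4% and 10.9% of the members, against 23.9% and 25.5% of all named genes. With all probes of a gene required, 20 and 6 kept their call, with a median of -0.23, against 21.2% and 22.7% of all named genes. With each array left out in turn, 17 to 24 members were lower (30.9% to 43.6%) and 5 to 7 higher (9.09% to 12.7%), with medians of -0.32 to -0.29. Of all named genes, 21.1% to 26.5% were lower and 23% to 27.3% higher in these runs. Of the members, 16 lower and 5 higher kept their call every time. Further pathway genes had 41 to 52 lower and 6 to 7 higher. Signals near the background limit the dimmest members, of which Rrp1 and Tsr1 were not detected on all arrays. The cause of these differences was not tested.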
